A study of Mus musculus with 6 samples.

Results

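The 4 heart libraries of mice on the NASH diet were described here by the kind of name under which they were deposited. In each diet group, 1 library carried a name with "3w" (3w-named) and 1 a name with "heart" (heart-named). The 3w-named libraries are replicate 2 of the N group and replicate 2 of the NP group, and the heart-named libraries are replicate 1 of each. These 4 of the 6 libraries in the series form 2 pairs, and the question was which genes differed between the sets in the same direction in both diet groups.

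All animals were male C57BL/6J mice with no engineered allele. The C group received normal chow, the N group a diet high in fat, cholesterol and sucrose with added bile acid, and the NP group that diet with 0.1 mg/kg pemafibrate, a modulator of the fatty acid receptor PPARα. Each library is 1 column of FPKM, that is, fragments scaled to transcript length and to the mapped reads of the library. Neither the labels nor the study's methods give what the names mean, the hour of collection, a batch, or whether a library came from 1 animal or a pool, so time of day, batch and animal cannot be told apart. The labels place the feeding at 3 weeks, and the study's methods give a longer period. One protocol text names liver as the source of RNA, although the tissue label is heart. *Myh6*, the major contractile myosin of the adult mouse heart, stood at 3841 to 6856 FPKM in the 4 NASH diet libraries, and *Alb*, serum albumin of hepatocytes, at 0.555 to 2.04 FPKM. *Alb* was at 10.8 and 211 FPKM in the C libraries, which enter the spread of the test. The files give no depth, and an estimate from the steps between low FPKM values gave 8.14e+06 to 8.76e+06 reads in the 4 NASH diet libraries against 2.6e+07 and 2.13e+07 in the C libraries.

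The circadian clock of heart cells is a feedback loop of transcription. ARNTL (BMAL1) pairs with CLOCK or NPAS2 and activates genes through E-boxes, and the PER and CRY proteins made from such genes repress the pair later in the day. The REV-ERB receptors repress and the ROR receptors activate *Arntl* through a shared element, the RORE, and DBP, TEF and HLF activate genes through D-boxes that NFIL3 represses. In tissues of mice, *Arntl* and *Npas2* therefore peak at an hour opposite to that of *Dbp*, *Per3* and *Ciart*.

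The core clock genes differed between the sets. *Arntl*, *Npas2* and *Clock* were lower in the 3w-named libraries of both groups, whereas *Dbp*, *Ciart*, *Per2* and *Per3* were higher. Of 19 clock genes tested, 10 were higher and 5 lower (adjusted *P* below 0.05, limma with Benjamini-Hochberg adjustment), that is, 78.9% of them, beside 9% of all 12923 genes tested in either direction. All 15 had the same sign in N and NP, as had all genes called and 69.9% of all genes tested. The sets did not overlap in any of the 15, nor in 1131 of the 1163 genes called and 53.1% of all genes tested. This test compares both pairs at once and takes its spread from them and from the C pair, with 2 residual degrees of freedom. With 2 libraries against 2 and the pairing by diet set aside, the smallest *P* that exact permutation allows is 0.333.

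*Arntl* (chr7:113178471-113314126, mm10) was at 14.8 and 15.7 FPKM in the heart-named libraries of N and NP, and at 2.05 and 1.996 FPKM in the 3w-named libraries. The heart-named level was thus 7.23-fold and 7.89-fold the 3w-named level. On the log2(FPKM + 1) scale the mean difference between the sets, called the set effect below, was -2.43 ± 0.09 (SE, adjusted *P* = 0.000959). *Npas2*, the partner that can stand in for CLOCK, was at 4.52 and 3.25 FPKM in the heart-named libraries and at 0.921 and 0.826 FPKM in the 3w-named libraries. *Clock* differed less, with 10.7 and 10.4 FPKM against 7.22 and 7.46 FPKM (set effect -0.47 ± 0.08, adjusted *P* = 0.0343). For all 3 activators, both heart-named libraries lay above both 3w-named libraries.

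Among the repressors of the loop, 6 of 8 were higher in the 3w-named libraries and none was lower. *Ciart* (chr3:95878500-95882257), which encodes a repressor of the CLOCK and ARNTL pair, was at 0.764 and 2.14 FPKM in the heart-named libraries of N and NP and at 11.9 and 16.7 FPKM in the 3w-named libraries (set effect 2.68 ± 0.15, adjusted *P* = 0.00542). The level was 15.6-fold higher in N and 7.79-fold higher in NP. *Per3* (chr4:150997018-151044707) was at 0.975 and 1.87 FPKM against 5.35 and 7.002 FPKM (set effect 1.58 ± 0.11, adjusted *P* = 0.0106). *Per2* was at 1.10 and 2.12 FPKM against 6.22 and 6.26 FPKM. *Per1*, which also responds quickly to glucocorticoids and light, was at 9.71 and 16.1 FPKM against 20.3 and 23.7 FPKM. *Bhlhe40* and *Bhlhe41*, which encode repressors that bind E-boxes, had set effects of 1.41 ± 0.09 and 0.79 ± 0.10. The cryptochromes did not pass the test. *Cry1* was at 5.43 and 4.73 FPKM against 3.71 and 4.005 FPKM (adjusted *P* = 0.117), and *Cry2* at 10.3 and 11.9 FPKM against 11.8 and 15.3 FPKM (adjusted *P* = 0.104, with the sets overlapping).

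Nuclear receptors act on *Arntl* in this loop. *Nr1d2* (REV-ERBβ) was higher in the 3w-named libraries, at 45.8 and 47.2 FPKM against 20.7 and 25.2 FPKM. *Nr1d1* (REV-ERBα) was at 43.6 and 33.3 FPKM in the heart-named and 48.02 and 54.7 FPKM in the 3w-named libraries and did not pass the test (set effect 0.42). *Rora* was at 6.20 and 8.80 FPKM against 6.73 and 6.96 FPKM, with opposite signs in the diet groups. *Rorb* was below the filter, at 0.0396 to 0.155 FPKM in the 4 libraries.

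Among the clock genes, the output factor *Dbp* had the largest set effect. *Dbp* (chr7:45705100-45710203) was at 3.62 and 2.72 FPKM in the heart-named libraries of N and NP and at 48.8 and 64.4 FPKM in the 3w-named libraries, 13.5-fold and 23.7-fold higher (set effect 3.78 ± 0.18, adjusted *P* = 0.00258). *Tef* and *Hlf*, of the same family, were higher with set effects of 1.054 ± 0.11 and 1.24 ± 0.25. *Nfil3*, their repressor, was lower, at 4.61 and 4.07 FPKM against 11.5 and 12.1 FPKM. *Dbp* overlaps *Sphk2*, a sphingosine kinase gene on the opposite strand, over 541 bases of transcript, and the strand setting of the authors' counting is not given in the sources used here. *Sphk2* was itself higher, at 17.9 and 22.6 FPKM against 9.78 and 11.1 FPKM, so the share of reads of each gene in that stretch is uncertain.

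**Figure D1:**
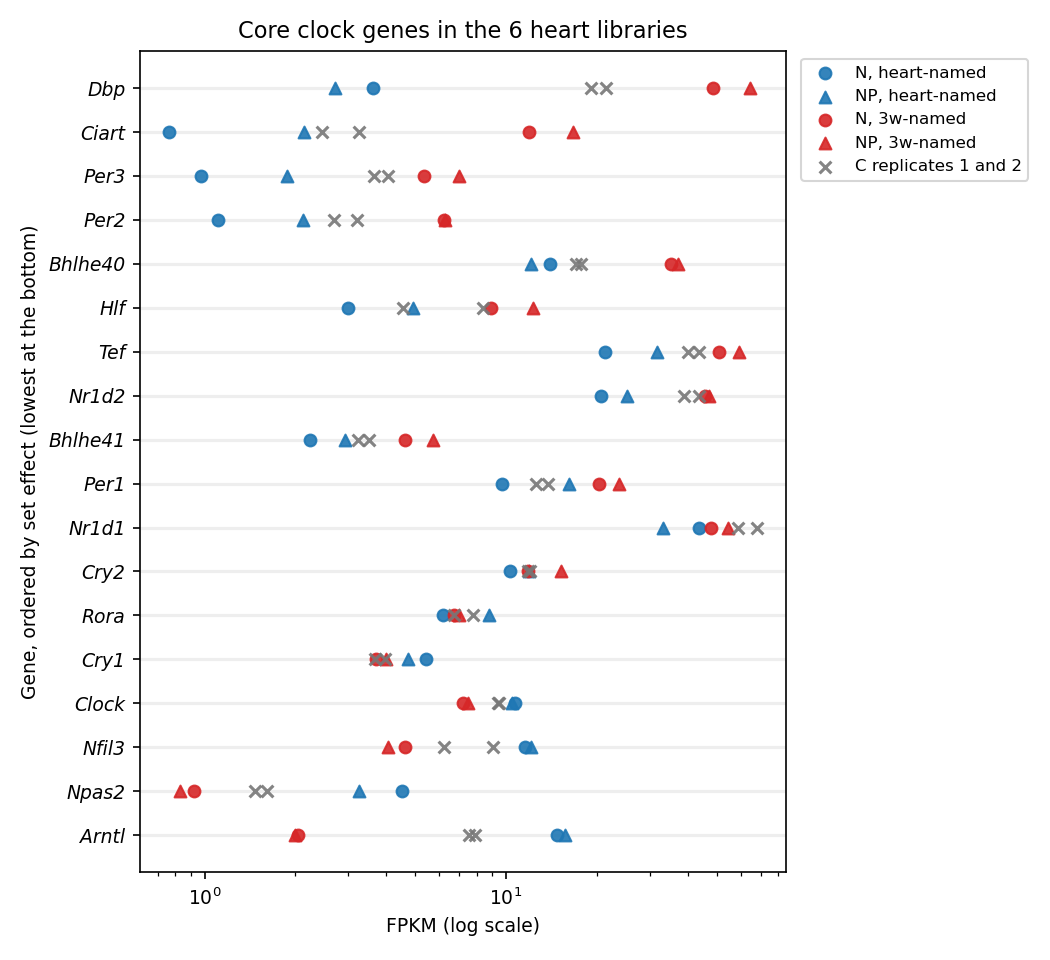
FPKM on a log axis of 18 of the 19 core clock genes tested, 1 row a gene, ordered by set effect. Blue marks are the heart-named and red marks the 3w-named libraries (circles N, triangles NP), and grey crosses are the C libraries; *Arntl* lies at 14.8 and 15.7 FPKM in blue and 2.05 and 1.996 FPKM in red, and *Dbp* is reversed.

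The C libraries lay between the sets for most clock genes, as the plot of clock genes by library shows. For 12 of the 15 genes called, both C libraries were above the one set and below the other, as they were for 40.8% of all genes called and 9.04% of all genes tested. *Arntl* was at 7.56 and 7.87 FPKM in C, and *Dbp* at 19.1 and 21.4 FPKM, with the C libraries close to each other. The spread within C was thus much smaller than the distance between the sets for both genes. A difference between C and N, or between C and NP, in these genes has a different sign depending on which NASH diet library is taken.

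The calls of single clock genes rest on the C pair as well as on the N and NP pairs. With the 4 NASH diet libraries alone, which leave 1 residual degree of freedom, no clock gene passed the threshold (limma). The set effects are the same in that fit, since the C libraries enter only the spread. In that fit 8 genes passed over all genes tested, with 3319 at an unadjusted *P* below 0.05. The 8 were *Coq10b*, *Ndufs5*, 4 small RNAs and 2 predicted genes. Of the small RNAs, *Mir130c*, *Mir678* and *Mir1957b* passed the FPKM filter only through the 3w-named libraries, where they were high. *Arntl*, *Dbp* and *Cdkn1a* passed in 16 of 20 alternatives each, *Ciart* in 12 and *Per3* in 11.

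The promoters of 4 clock-related genes that hold an element of this loop are given as examples, with the element in capitals. They are RefSeq sequences of GRCm38.p6, the assembly of mm10, written 5′ to 3′ on the strand of the gene. For *Ciart* (chr3:95882229-95882478, minus strand), *Per3* (chr4:151044666-151044915, minus strand) and *Coq10b* (chr1:55052520-55052769, plus strand), the 250 bases before the start are shown. For *Arntl* (chr7:113207528-113207557, plus strand), 30 bases just after one of its starts are shown. Capitals mark the E-box CACGTG, the D-box TTATGTAA or its reverse complement, or the RORE.

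Ciart: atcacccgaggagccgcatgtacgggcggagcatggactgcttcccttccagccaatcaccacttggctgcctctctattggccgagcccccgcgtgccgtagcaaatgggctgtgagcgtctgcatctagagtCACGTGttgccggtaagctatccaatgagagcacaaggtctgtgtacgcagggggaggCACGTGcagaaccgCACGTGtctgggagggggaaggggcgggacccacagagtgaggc
Per3: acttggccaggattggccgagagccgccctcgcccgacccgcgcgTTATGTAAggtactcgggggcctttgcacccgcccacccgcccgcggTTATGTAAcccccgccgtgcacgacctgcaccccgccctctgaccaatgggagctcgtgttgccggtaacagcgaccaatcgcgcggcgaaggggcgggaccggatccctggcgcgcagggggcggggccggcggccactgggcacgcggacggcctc
Coq10b: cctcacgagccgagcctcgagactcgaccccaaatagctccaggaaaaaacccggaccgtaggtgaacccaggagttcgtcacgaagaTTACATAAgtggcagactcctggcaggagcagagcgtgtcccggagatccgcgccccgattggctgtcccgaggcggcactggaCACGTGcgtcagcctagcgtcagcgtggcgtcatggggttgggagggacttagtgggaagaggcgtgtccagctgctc
Arntl: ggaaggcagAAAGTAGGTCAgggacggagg

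*Ciart* holds E-boxes that begin at positions -116, -58 and -44 from its start, *Per3* D-boxes at -205 and -158, and *Coq10b* an E-box at -78 and a D-box at -162. The E-box was found on either strand in 11.7% of the 9776 tested genes with a promoter entry of 300 bases, in 13.5% of the 416 such genes that were higher in the 3w-named libraries and in 13.5% of the 451 that were lower. The D-box was found in 0.696% of all, in 4 of the higher genes and in 1 of the lower genes. The RORE was found in 0.235% of all, in 1 of the higher genes and in 2 of the lower genes. These windows hold the E-box in *Per1*, *Cry1*, *Bhlhe41* and *Tef* as well, and in the lower genes *Slc41a3*, *Adam19* and *Cnksr3*. None of these motifs was found in the windows of *Dbp*, *Npas2*, *Clock*, *Cry2*, *Nr1d1*, *Nr1d2*, *Rora*, *Rorb*, *Hlf* and *Nfil3*. The letters of a motif in a window are a description and not a measured binding site, and 17 of the 20 clock genes had an entry.

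Beyond the clock genes, the sets differed at many genes by small amounts. Of 12923 genes with a mean of at least 0.5 FPKM, 563 (4.36%) were higher and 600 (4.64%) lower in the 3w-named libraries, and all 1163 had the same sign in both groups. Of the genes called, 48.4% were higher, a share that became 28.0% when all libraries were scaled to the same total FPKM and 60.7% when they were centred on the same median. Among the 1163, 39 were at least 2-fold higher and 30 at least 2-fold lower in both groups on the log2(FPKM + 1) scale. Without any test, 363 genes (2.81%) changed by at least 1.5-fold in the same direction in N and NP, 185 of them higher and 178 lower, and 33 changed by as much in opposite directions. The median difference in size was 0.21 in N, 0.20 in NP and 0.10 between the C libraries. Across genes, the difference in N correlated with that in NP (Pearson's r = 0.458, Spearman's rho = 0.555, 12923 genes, which are not independent replicates).

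**Figure D2:**
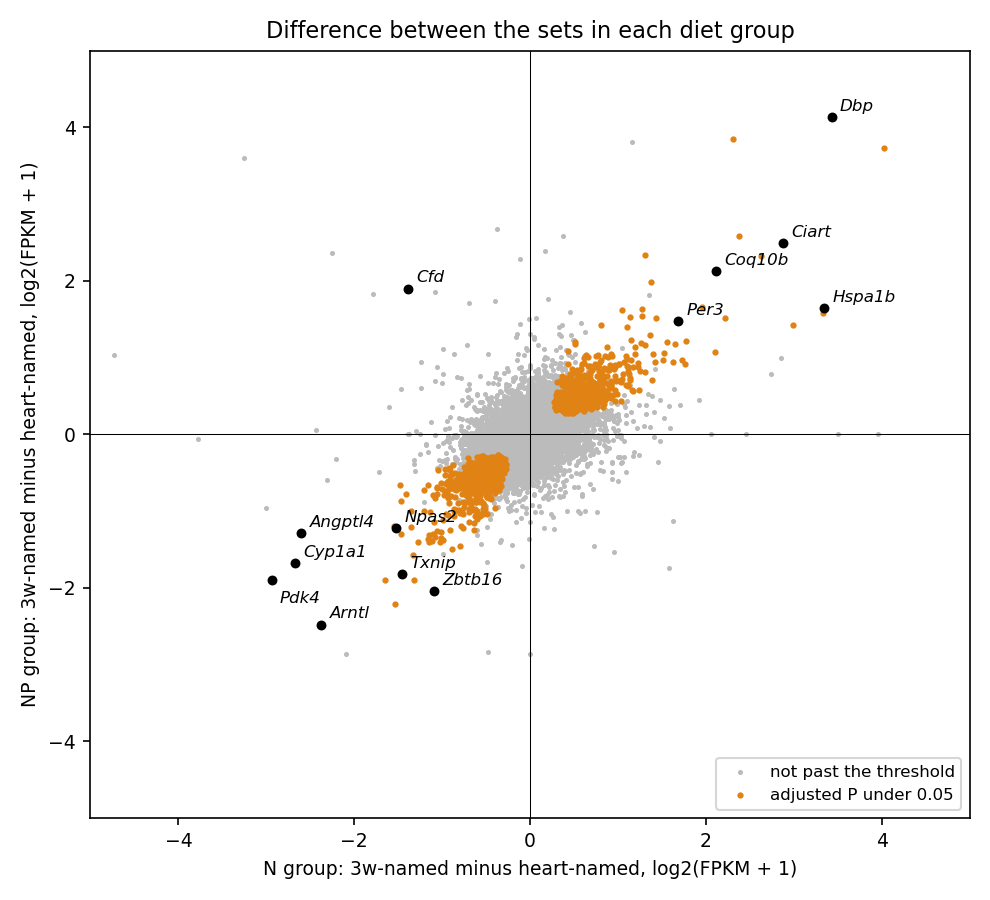
Each point is 1 of the 12923 genes tested, with the 3w-named minus heart-named difference on log2(FPKM + 1) in the N group (x axis) and the NP group (y axis). Orange points passed the test and lie in the lower left and upper right quadrants; *Cfd*, of adipocytes, lies in the upper left, and 33 genes beyond 5 on either axis, several of them small RNAs, are not shown.

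The broad difference moved with the base composition and length of the transcripts, which the plot of medians by GC content and length shows for 5 bins of equal number. In the bin of genes with the lowest GC content, the median difference was 0.15 in N and 0.12 in NP, and in the bin with the highest it was -0.20 and -0.14. Genes higher in the 3w-named libraries numbered 212 in the lowest GC bin and 32 in the highest, and genes lower numbered 16 and 253. The bin of the shortest transcripts had medians of 0.09 and 0.12, and the longest -0.05 and -0.09. The C libraries had the same order by GC content at a smaller size, from 0.06 to -0.06. After the trends with GC content and length were taken out of each library, 209 of 12458 genes passed the test in place of 1163. Of the 209, 101 were higher and 108 lower, and 189 were among the 1163. Counts of list members from that fit, given below, are to be read beside these smaller shares of all genes. Of the 19 clock genes, 11 passed in that fit, *Arntl*, *Npas2*, *Dbp*, *Ciart*, *Per2* and *Per3* among them.

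**Figure D3:**
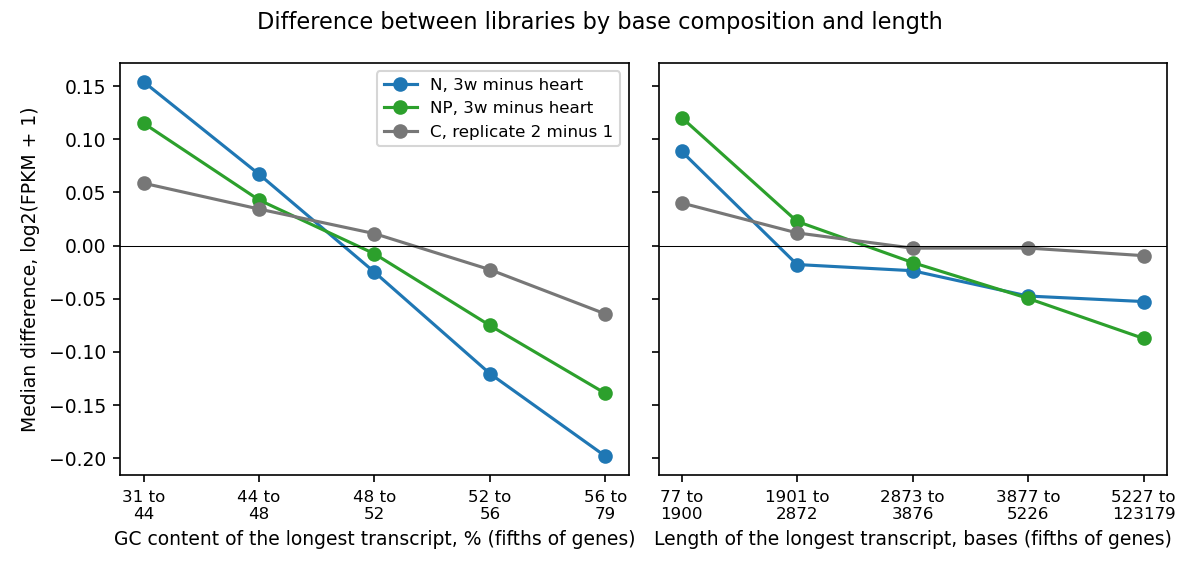
Median difference between libraries on log2(FPKM + 1) in 5 bins of 12458 genes by GC content (left) and by length (right) of the longest transcript, for the N pair (blue), the NP pair (green) and the C pair (grey, replicate 2 minus replicate 1). All 3 lines fall with GC content, the N line from 0.15 to -0.20.

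Genes known as outputs of the clock in heart and other tissues moved in both directions. Of 30 tested, 5 were higher and 6 lower, beside 4.36% and 4.64% of all genes. Their median difference was -0.04 in N and -0.08 in NP, beside -0.01 in both for all genes. *Coq10b* (chr1:55052770-55072702), for a lipid-binding protein that serves coenzyme Q in mitochondria, was at 12.2 and 10.6 FPKM in the heart-named and 56.1 and 49.7 FPKM in the 3w-named libraries (set effect 2.12 ± 0.09, adjusted *P* = 0.00152). It was 4.60-fold and 4.68-fold higher. *Usp2*, a deubiquitinase gene under clock control in many tissues, and *Wee1*, for a kinase that holds back mitosis, were higher with set effects of 0.93 ± 0.11 and 1.08 ± 0.11. *Slc41a3*, for a magnesium transporter, was lower, at 29.98 and 32.4 FPKM against 84.7 and 81.6 FPKM. *Cdkn1a*, for the cell cycle inhibitor p21, was lower at 21.7 and 19.3 FPKM against 70.3 and 74.6 FPKM (set effect -1.77 ± 0.08, adjusted *P* = 0.00273), and *Ypel2* had a set effect of -1.34 ± 0.09. None of the 6 clock kinase and ubiquitin ligase genes tested passed the test, *Csnk1d* and *Csnk1e*, for casein kinases that act on the PER proteins, among them.

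Genes of fasting and FoxO control were lower in the 3w-named libraries where they differed. FoxO transcription factors are held out of the nucleus by insulin signalling and switch on genes of protein breakdown and fuel saving. Of 19 members, 9 were lower and none was higher, beside 4.64% lower and 4.36% higher among all genes, with a median of -0.43 in N and -0.59 in NP. *Txnip*, which restrains glucose uptake, was at 468 and 558 FPKM in the heart-named and 170 and 157 FPKM in the 3w-named libraries (set effect -1.64 ± 0.10, adjusted *P* = 0.00718). *Pik3ip1*, for an inhibitor of PI3K, was lower at 24.0 and 29.5 FPKM against 49.4 and 72.5 FPKM. *Gabarapl1* of autophagy and the muscle ubiquitin ligases *Fbxo32* and *Trim63* were lower with set effects of -1.18 ± 0.16, -0.60 ± 0.11 and -0.80 ± 0.15. *Lpin1* and *Pnpla2*, which act in triglyceride turnover, were lower as well. With GC content and length taken out, 4 of the 19 passed, all lower, and the medians were -0.30 in N and -0.61 in NP.

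Of 34 PPARα and fatty acid oxidation genes, 6 were lower and none higher (4.64% and 4.36% of all genes), with medians of -0.27 in N and -0.08 in NP. *Pdk4* (chr6:5483351-5496278), for the kinase that shuts pyruvate dehydrogenase in fasting, was at 996 and 338 FPKM in the heart-named and 129 and 89.5 FPKM in the 3w-named libraries (set effect -2.42 ± 0.23, adjusted *P* = 0.02). The C libraries were at 1038 and 1108 FPKM, near the heart-named N library and above the other 3. *Angptl4*, a secreted inhibitor of lipoprotein lipase, was at 39.1 and 9.56 FPKM against 5.60 and 3.32 FPKM. *Plin5* and *Mlycd*, of lipid droplets and malonyl-CoA breakdown, had set effects of -0.82 ± 0.08 and -0.56 ± 0.07. Both *Pdk4* and *Angptl4* were lower in the heart-named NP library than in the heart-named N library, a comparison of single libraries with no test.

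Among 32 genes of glucose uptake, glycolysis and glycogen, 2 were higher and 6 lower, beside 4.36% and 4.64% of all genes. With GC content and length taken out, 1 was higher and 1 lower. *Gys1*, the glycogen synthase of muscle, was lower at 39.4 and 45.0 FPKM against 66.0 and 74.3 FPKM, and *Gapdh* was lower at 1361 and 1569 FPKM against 2464 and 2224 FPKM. *Gapdh* is used in many laboratories as a reference gene, and it shares up to 300 identical bases with a predicted copy listed at 4.93 to 6.39 FPKM in the 4 libraries. *Pfkfb3*, an activator of glycolysis, was higher with a set effect of 0.69 ± 0.10, and *Ppp1r3c*, which targets a phosphatase to glycogen, with 0.70 ± 0.15. Of 17 fatty acid synthesis genes *Acacb* and *Srebf1* were lower and none was higher. No gene of 24 in cholesterol synthesis passed the test, with medians of 0.02 and 0.14.

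**Figure D4:**
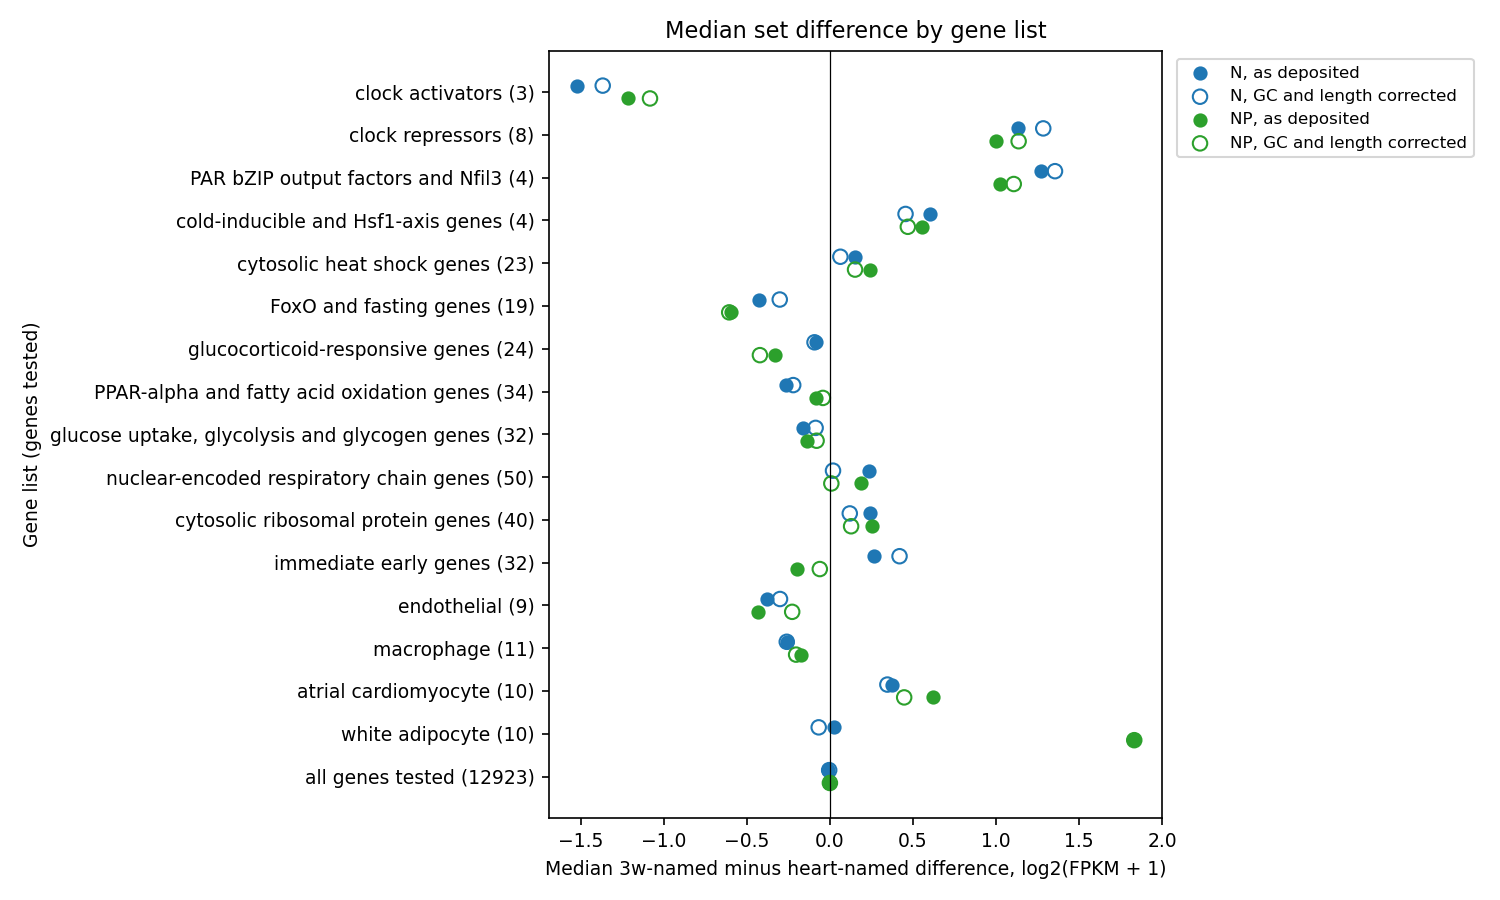
Median 3w-named minus heart-named difference on log2(FPKM + 1) over the genes of each list, with the number tested, in N (blue) and NP (green). Filled circles are the values as deposited and open circles those with GC content and length taken out; clock activators lie at -1.52 and -1.22, and the respiratory chain moves from 0.24 and 0.19 to 0.02 and 0.01.

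The cytosolic heat shock genes that passed were higher in the 3w-named libraries. Of 23 cytosolic chaperone genes, 7 were higher and none lower (4.36% and 4.64% of all genes), with medians of 0.15 in N and 0.24 in NP. *Hspa1b* (chr17:34956429-34959238), for the inducible chaperone HSP70, was at 0.739 and 0.557 FPKM in the heart-named and 16.7 and 3.87 FPKM in the 3w-named libraries (set effect 2.49 ± 0.39, adjusted *P* = 0.0302). The N pair differed more than the NP pair, 22.5-fold against 6.95-fold. *Hspa1a* encodes the same protein, and its transcript is 99.2% identical to that of *Hspa1b* over 2201 bases, so the split between them is uncertain. *Dnajb1* and *Dnaja1*, for co-chaperones of HSP70, were higher with set effects of 1.34 ± 0.21 and 1.38 ± 0.12. *Dnaja1* alone of this list passed with GC content and length taken out, a fit in which 101 of 12458 genes were higher.

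The cold-inducible RNA-binding genes *Cirbp* and *Rbm3*, whose transcripts follow body temperature through the day, were both higher. *Rbm3* was at 37.4 and 32.1 FPKM in the heart-named and 64.7 and 60.1 FPKM in the 3w-named libraries (set effect 0.83 ± 0.08, adjusted *P* = 0.0196), and *Cirbp* had a set effect of 0.57 ± 0.09. *Srsf5* was higher and *Hsf1*, for the main heat shock transcription factor, lower at 15.7 and 15.9 FPKM against 22.2 and 21.8 FPKM. All 4 tested genes of this list thus passed, beside 9% of all genes. With GC content and length taken out, 1 of the 4 passed, beside 209 of 12458 genes.

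Of 24 glucocorticoid-responsive genes, 5 were lower and 1, *Per1*, was higher, beside 4.64% and 4.36% of all genes. With GC content and length taken out, 1 was lower and none higher. *Zbtb16*, a strongly steroid-induced transcription factor gene, was at 29.5 and 43.9 FPKM against 13.3 and 9.86 FPKM (set effect -1.57 ± 0.22, adjusted *P* = 0.0277), and *Ddit4*, an inhibitor of mTOR signalling, was at 37.4 and 110 FPKM against 26.3 and 53.0 FPKM. Among 32 immediate early genes only *Nr4a1* and *Ier3* passed, both higher, a share below the 9% of all genes. *Nr4a1*, for an orphan nuclear receptor induced within minutes of a stimulus, was at 7.43 and 12.2 FPKM against 31.7 and 40.5 FPKM (set effect 1.80 ± 0.11). The list's medians differed in sign between the diet groups, 0.26 in N and -0.20 in NP. None of 17 genes of the ATF4 stress response passed, and of 19 ER chaperone genes *Creld2* and *Hyou1* were lower and *Selk* higher. *Nqo1* and *Prdx1*, antioxidant genes under NRF2, were the 2 of 21 in their list that passed, a share close to the 9% of all genes, and both were higher.

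In the FPKM as deposited, the genes for ribosomal and respiratory chain proteins that passed were higher. The calls in the respiratory chain list depended on the scaling, with 2 higher and 6 lower after quantile normalization. Of 40 cytosolic ribosomal protein genes, 11 were higher and none lower (4.36% and 4.64% of all genes), with medians of 0.24 and 0.25, and of 50 nuclear-encoded respiratory chain genes 6 were higher and none lower, with medians of 0.24 and 0.19. The 11 include *Rps27*, which has a near-identical copy described below. *Rpl35* was at 323 and 331 FPKM in the heart-named and 564 and 480 FPKM in the 3w-named libraries, and *Cox7b* at 464 and 515 FPKM against 878 and 802 FPKM. The median transcript of these lists is 1102 and 1232 bases long, against 3349 bases for all genes. With GC content and length taken out, the ribosomal medians were 0.12 and 0.13 with 1 gene higher and 1 lower, and the respiratory chain medians 0.02 and 0.01 with 3 genes lower and none higher. Mitochondrially encoded genes were not analysed here.

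Other genes with a wide difference belonged to no list. *Siah2*, for a ubiquitin ligase of the hypoxia response, was at 3.52 and 2.70 FPKM against 11.2 and 9.61 FPKM. *Atcayos*, an antisense transcript of *Atcay*, was at 17.0 and 20.5 FPKM against 82.5 and 60.5 FPKM, and its overlap with *Atcay* spans 277 bases. *Cyp1a1*, the detoxifying enzyme induced by the aryl hydrocarbon receptor, was at 5.39 and 2.202 FPKM in the heart-named libraries and listed at 0 in both 3w-named libraries. Against a floor of 3 reads in each library at the estimated depth, it was at least 39.3-fold lower in N and at least 15.5-fold lower in NP. In the C libraries it was at 0.0313 FPKM and 0. *Adam19*, a metalloprotease gene, was lower with a set effect of -1.37 ± 0.16, *Cnksr3*, a scaffold gene of sodium transport, with -1.28 ± 0.12, *Tmem171* with -1.88 ± 0.20 and *Ptgds*, for prostaglandin D synthase, with -1.45 ± 0.31.

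Some of the widest differences lay in genes with a near-identical copy, where the authors' counting could have split the reads. *Ndufs5*, for a subunit of respiratory complex I, was at 262 and 186 FPKM in the heart-named and 0.0617 and 0.0796 FPKM in the 3w-named libraries (set effect -7.69 ± 0.32, adjusted *P* = 0.00172). *BC002163*, whose transcript is 99.4% identical to it over 319 bases, was at 27.4 and 90.3 FPKM against 284 and 272 FPKM. Their sum was 290 and 276 FPKM in the heart-named and 284 and 272 FPKM in the 3w-named libraries, a difference of -0.03 in N and -0.02 in NP. The sum of the copies thus hardly differed between the sets, while each copy alone passed the test in opposite directions. *Rps27* was at 7.21 and 6.46 FPKM against 39.7 and 106 FPKM, and its copy *Rps27rt*, identical over 221 bases, was at 794 and 711 FPKM against 996 and 662 FPKM, so their sum differed by 0.37 and 0.10. *Btg3* and a predicted gene identical to it over 438 bases exchanged in the same manner, with sums that differed by 0.18 and -0.22.

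**Figure D5:**
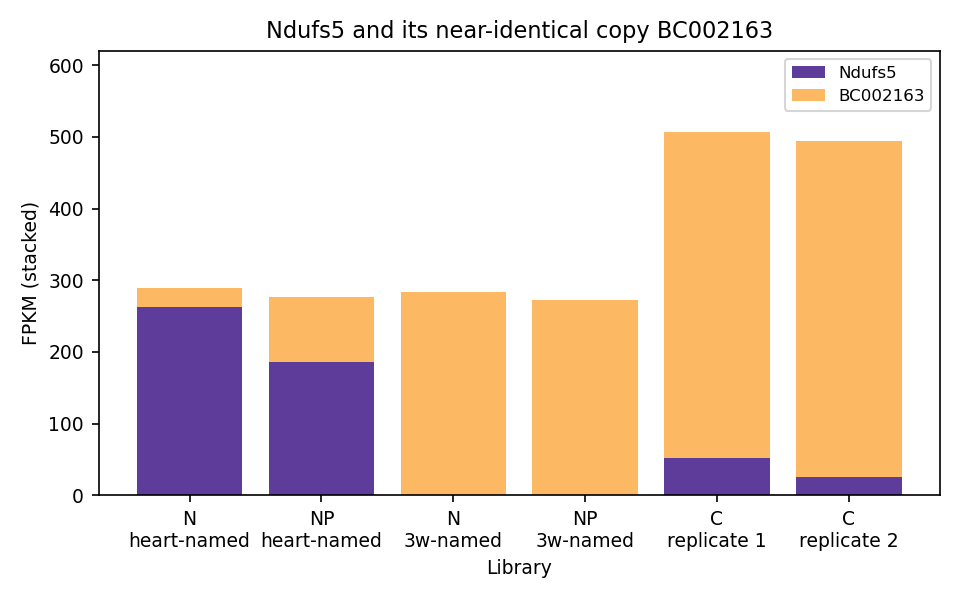
FPKM of *Ndufs5* (purple) and *BC002163* (yellow), stacked, in the 6 libraries, with the axis starting at 0. The split between the copies turns over from the heart-named to the 3w-named libraries, while the stacked height stays at 290, 276, 284 and 272 FPKM.

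The highest set effects among the named genes were those of small RNAs. *Mir130c*, *Mir678* and *Mir1957b* were listed at 0 in both heart-named and both C libraries, and *Mir6363* was listed at 0 in both heart-named libraries but at 409 and 621 FPKM in C. The 3w-named libraries held *Mir130c* at 2612 and 5353 FPKM, *Mir678* at 1421 and 2612 FPKM, *Mir6363* at 195 and 266 FPKM and *Mir1957b* at 41.8 and 42.8 FPKM. An FPKM of a transcript close to the length of a read rests on very few fragments, the kit selects polyadenylated RNA, and no fold is given.

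Markers of cell types were examined next. In bulk tissue, fewer cells of a type and less RNA per cell cannot be told apart. Of 9 endothelial markers, 4 (*Pecam1*, *Kdr*, *Tie1* and *Flt1*) were lower, beside 4.64% of all genes, and none was higher, with medians of -0.38 and -0.44. *Pecam1* was at 93.5 and 94.6 FPKM in the heart-named and 73.3 and 71.4 FPKM in the 3w-named libraries. With GC content and length taken out, the medians were -0.30 and -0.23 and none passed. Of the other abundant markers, *Cdh5* of endothelium was at 72.2 and 100.2 FPKM against 59.7 and 73.5 FPKM, *C1qb* of macrophages at 143 and 50.5 FPKM against 121 and 44.9 FPKM, and *Dcn* of fibroblasts at 446 and 421 FPKM against 497 and 521 FPKM. Of 11 macrophage markers *Csf1r* and *Cd163* were lower. Of 10 fibroblast markers *Lum*, a matrix proteoglycan gene, was higher, and of 22 extracellular matrix genes *Eln*, for elastin, was lower. The share in the fibroblast list is close to the 9% of all genes called, and that in the matrix list is below it. Neither *Lum* nor *Eln* passed with GC content and length taken out.

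Among cardiomyocyte genes, *Myl2*, the ventricular light chain, was higher at 17042 and 18366 FPKM against 11855 and 12145 FPKM, whereas *Myh6* was lower at 3841 and 4814 FPKM against 5671 and 6856 FPKM. Of 10 atrial markers 1 passed, a share close to the 9% of all genes. It was *Sln*, which inhibits the calcium pump in atria, at 250 and 287 FPKM in the heart-named and 462 and 518 FPKM in the 3w-named libraries. The summed FPKM of this list was 3784 and 3868 in the heart-named and 5315 and 6356 in the 3w-named libraries, but 321 and 192 in the C libraries. Each of the 4 NASH diet libraries thus held atrial transcripts above both C libraries, and the part of that content in the set differences was not tested. Of the most abundant markers, *Nppa* was at 1992 and 2082 FPKM in the heart-named and 2647 and 3259 FPKM in the 3w-named libraries, and *Myl7* at 857 and 781 FPKM against 1193 and 1319 FPKM. *Actc1* and *Tnnt2*, of all cardiomyocytes, were at 9433 and 9462 FPKM against 9455 and 11324 FPKM, and at 7747 and 8031 FPKM against 7466 and 8964 FPKM. None of these 4 passed the test. *Nppa* was higher by 0.41 in N and 0.65 in NP, and *Myl7* by 0.48 and 0.75, with SEs of 0.30 and 0.50. The C libraries, which enter those SEs, were at 303 and 158 FPKM for *Nppa* and at 1.51 and 6.70 FPKM for *Myl7*. With GC content and length taken out, no gene of the atrial, ventricular or cardiomyocyte lists passed, *Myl2*, *Myh6* and *Sln* included. *Sln* passed in 5 of 20 alternatives. *Kcnj3*, an atrial potassium channel gene, was higher and *Kcnj2* lower, the 2 of 21 ion channel genes that passed, a share close to the 9% of all genes. Neither passed with GC content and length taken out. *Rcan1*, a target of calcineurin, was the 1 of 13 hypertrophy genes that passed, a share close to the 9% of all genes, and it was lower. It did not pass with GC content and length taken out.

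Of 10 white adipocyte markers, 5 were higher in the 3w-named library of both groups without passing the test (*Plin1*, *Cidec*, *Pck1*, *Adig* and *Pparg*). Of the others, 1 was lower in both groups and 4 had opposite signs in N and NP. Among all 12923 genes tested, 4342 were higher in both groups and 4695 lower in both. *Cidec*, of lipid droplets, was at 9.70 and 0.810 FPKM in the heart-named and 11.02 and 8.47 FPKM in the 3w-named libraries. *Adipoq*, the adiponectin gene, was at 16.0 FPKM in the heart-named and 14.6 FPKM in the 3w-named N library, and at 1.66 and 11.9 FPKM in the NP libraries. *Cfd*, for adipsin, was at 142 FPKM in the heart-named and 53.5 FPKM in the 3w-named N library, and at 11.2 and 44.3 FPKM in the NP libraries. The list's median difference was 0.02 in N and 1.83 in NP, and its median set effect was 0.93. *Car3*, also abundant in fat, was at 72.7 and 6.23 FPKM in the heart-named and 55.8 and 45.1 FPKM in the 3w-named libraries. *Lipe*, for hormone-sensitive lipase, was the 1 of 10 that passed, a share close to the 9% of all genes, and it was lower in both groups. Of 27 interferon and MHC genes *Irf1* and *Iigp1* were higher and none was lower, beside 4.36% and 4.64% of all genes. For both genes the sets overlapped, since the diet groups differed more than the sets. *Iigp1* was at 322 and 566 FPKM in N against 14.4 and 21.4 FPKM in NP. *Irf1* was at 35.5 and 50.04 FPKM in N against 12.4 and 15.4 FPKM in NP. No gene of this list passed with GC content and length taken out.

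No tested gene of skeletal muscle, smooth muscle, neutrophils, erythroid cells, lymphocytes, thymocytes, nerve, mesothelium, valve, brown fat or hepatocytes passed. Few members were above the filter in some lists: 2 of 12 for T and NK cells, 2 of 8 for B cells, 1 of 7 for thymocytes, 4 of 11 for skeletal muscle and 4 of 10 for neutrophils. The C libraries, which enter the spread, differed by a median of 3.12 in the hepatocyte and 1.72 in the erythroid list. The lack of calls in these lists therefore says little about tissue content. No gene of 12 in the cell cycle list passed either. Summed erythroid transcripts were at 293 and 278 FPKM in the heart-named and 459 and 359 FPKM in the 3w-named libraries. *Ucp1*, of brown fat, was at 5.84 FPKM and 0 in the heart-named and 14.3 and 12.97 FPKM in the 3w-named libraries of N and NP. *Acta2*, of smooth muscle, was at 58.3 and 49.8 FPKM against 67.7 and 53.6 FPKM. Summed lung epithelial transcripts were at most 0.0843 FPKM in the 4 libraries. *Neat1*, a nuclear long non-coding RNA, was lower at 95.9 and 109 FPKM against 167 and 302 FPKM.

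The difference between the sets was also compared between N and NP. In that fit the error is that of the C pair, with 1 residual degree of freedom. Only 24 genes (0.186%) passed, with 968 at an unadjusted *P* below 0.05, and 20 of the 24 have transcripts under 300 bases. No clock gene was among them.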

How the data were processed

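The 6 heart libraries (2 each in C, N and NP) were assigned by their titles. Per the labels, mRNA libraries were made with a stranded kit, and the authors mapped reads to mm10 with TopHat2 2.0.13 and Bowtie2 2.2.3, with SAMtools 0.1.19, and computed the deposited FPKM with Cufflinks 2.2.1. Counts were not used here. Analyses used log2(FPKM + 1) with no added scaling, over genes with a mean of at least 0.5 FPKM. With R 4.3.3 and limma 3.58.1, group and set (3w-named or heart-named) were fitted with a mean trend and Benjamini-Hochberg adjustment at 0.05. The procedure was tested on simulated data. The gene lists and members were chosen with earlier results of these data known. Nothing in the sources says that replicates came from separate animals, so *P* values measure the spread between libraries.

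Some genes counted in the lists are not reported here by name. Genes were otherwise named by a rule: all core clock genes; the 15 highest and 15 lowest by the smaller of the N and NP differences among genes past the threshold, predicted genes aside; up to 4 called members of each other pathway list by adjusted *P*; the 2 most abundant markers of each cell type; and the 5 genes with the smallest adjusted *P* for the difference between N and NP. Other called list members, the other white adipocyte markers, *Rps27rt* and *Sphk2* were named after their values were seen. Length and GC content are those of the longest GENCODE M21 transcript, found for 12458 genes. The correction fitted splines with 5 degrees of freedom to both in each library. Copies were sought with blastn 2.17.0 at 95% identity over 150 bases. Depth was estimated from 4107 genes with 1 transcript of at least 500 bases as the smallest total at which low values were near whole reads, within 0.1 of a read for 73.8% to 79.1% of values, with a fragment length of 200 bases. Floors cover counting error only.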

Additional observations from a re-analysis of the deposited data

Results flagged for a closer look

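The 3w-named minus heart-named difference itself differed between the NP and N groups for 24 genes (limma, contrast of the set effects, error from the C pair). The 5 with the smallest adjusted *P* are small RNAs that were listed at 0 in most libraries, both C libraries included. The C pair thus held no spread for these 5, and their *P* values rest on the spread borrowed from other genes. *Mir208b*, *Mir1896*, *Mir5113* and *Mir3074-1* passed the FPKM filter only through the library in which they were high. The test therefore cannot tell a difference between the diet groups from a single high value, and only the contrasts are given. The NP minus N contrast on log2(FPKM + 1) was 12.31 for *Mir208b*, which was at 5072 FPKM in the 3w-named NP library and at 0 in the other 5. It was -11.05 for *Snora43*, at 44.4 FPKM in the 3w-named N and 45.8 FPKM in the heart-named NP library. It was -10.65 for *Mir1896*, at 1607 FPKM in the 3w-named N library alone. It was 9.65 for *Mir5113* and 9.63 for *Mir3074-1*, at 801 and 793 FPKM in the 3w-named NP library alone. The 4 longer genes or genes without a length were *Apoo-ps*, *Gm5643*, *H2-Q8* and *Hbb-bs*, of which *Hbb-bs*, an adult β-globin gene, was at 14.6 FPKM in the 3w-named N library and at most 0.00540 FPKM in the other 5. These 4 were named after their values were seen, and gene copies that share reads occur among globin and MHC genes. Groups of 2 libraries are too small to be searched for single libraries that stand apart.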

How the results depend on the processing

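Over the 1163 genes called, the count was 8 in the 4 NASH diet libraries alone, 66 without a mean trend, 1826 with a robust prior, 274 without the diet block and 14 with no filter on low values. It was 209 with GC content and length taken out, an alternative added after the data were seen, as was the restriction to transcripts of at least 300 bases (1449). Leaving out 1 library gave 8 to 41 genes, with 8 without either C library, 31 and 33 without an N library and 38 and 41 without an NP library, so the count rests on each of the 6. Other scalings, pseudocounts and the filter at 2 FPKM gave 1046 to 1523. All 15 clock genes called kept their direction in all 20 alternatives, and 15 passed again under the 3 scalings, both pseudocounts and the filter at 2 FPKM, 9 without the diet block, 6 without a mean trend, 2 with no filter, 0 to 3 with a library left out and none in the 4 libraries alone or with the replicate block. The cause of these losses was not tested, and the fits with libraries left out also have fewer degrees of freedom. Since the 15 have the same sign in N and NP, their direction was fixed in most of these fits. Those were the fits that changed the error model, the pseudocount or the filter, dropped the diet block or left out any library. It could change only under the scalings, the correction for GC content and length, and the replicate block. Of 123 genes whose set effects were followed, only *Rora* changed sign, from -0.30 without an N library to 0.10 without an NP library. *Rora* did not pass and has opposite signs in N and NP.

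With the replicate block in all 3 groups, so that the C replicate numbers entered too, 0 genes passed in limma, with 2413 at an unadjusted *P* below 0.05. The labels give no meaning to the numbers. Across genes, the replicate 2 minus replicate 1 difference in C correlated with that in N at r = 0.05 (rho = 0.23) and with that in NP at r = 0.12 (rho = 0.26), against 0.46 (rho = 0.55) between N and NP. The numbers were not taken to pair the C libraries because 1 of these r was under 0.1, although both rho were above it.

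The count of genes whose set difference itself differed between N and NP was 24, 5 with a pseudocount of 0.1, 0 with no filter and 0 among transcripts of at least 300 bases (limma, with 1989 and 970 at an unadjusted *P* below 0.05). Without a library of N or NP it could not be fitted, and without a C library it has no residual degrees of freedom. The 363 genes past 1.5-fold in both groups became 675 with a pseudocount of 0.1 and 74 at 2-fold. Under other scalings, list medians kept their sign for the clock activators, clock repressors, FoxO and endothelial lists, while the respiratory chain median of 0.19 was 0.05 after quantile normalization. Respiratory chain genes called were 2 higher and 6 lower after quantile normalization, 5 and 6 at the same total, and 12 and 0 at the same median. Depth limits the low genes, since 8372 to 8844 of 24346 genes were listed at 0 in the NASH diet libraries and 7852 and 7894 in the C libraries.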
